A study of Mus musculus with 6 samples.

Results

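The 43 genes described here are the cytochrome P450 genes of the Cyp1, Cyp2 and Cyp3 families in mouse liver, chosen by their symbols among the 20914 genes of the deposited count table. Pseudogenes, all Cyp2a and Cyp2b genes and Cyp2c70 were left out. The members fall into 12 subfamilies, of which the largest are Cyp2c with 13 genes, Cyp3a with 9 and Cyp2d with 8. Liver RNA was sequenced in 6 libraries, 3 labelled DOX and 3 labelled PBS, and the comparison was DOX against PBS. Libraries of both groups carry the same genotype label, BucheKI/KI-Hep, and the same label of BDL treatment, which in mouse liver studies usually stands for bile duct ligation. The sample names of both groups also carry S10D, CKI and Alb-Cre. Alb-Cre is a Cre recombinase under the albumin promoter, which is active in hepatocytes, and neither S10D nor DOX is explained in the labels. By its title the series concerns butyrylcholinesterase and hepatic stellate cells, and no library without BDL or without the knock-in was used here. Age and sex are not in the labels, nor is it said whether each library is a different animal. The tests therefore compare the groups with the spread among these 6 libraries, part of which may be technical.

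P450 enzymes of these 3 families sit in the endoplasmic reticulum, hold a haem group, and use electrons passed on by cytochrome P450 reductase (Por) and cytochrome b5 to oxidize drugs, pollutants, steroids and fatty acids. Cyp1 genes are the classic targets of the aryl hydrocarbon receptor (AHR), many Cyp2c genes are targets of the constitutive androstane receptor (CAR, Nr1i3), and Cyp3a genes are targets of the pregnane X receptor (PXR, Nr1i2). In mouse liver the Cyp2c, Cyp2d and Cyp3a genes stand in clusters of close relatives, several of them expressed mainly in one sex under the control of growth hormone. Most of these enzymes are made by hepatocytes, many of them mainly in the pericentral zone of the lobule. The RNAs of many are known to fall in inflamed liver, and those of some, not all, in cholestatic liver.

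The libraries held 32826493 to 41102844 counts. Bche, the gene of butyrylcholinesterase, stood at 448 to 969 CPM in DOX and 193 to 245 CPM in PBS. CPM are read counts relative to library size, here scaled by the trimmed mean of M-values (TMM). Its edgeR adjusted p was 0.106, above the threshold of 0.05, at a log2 fold change of 1.67 with an SE of 0.27. The hepatocyte markers were abundant in each library, and Alb alone took 6.09% to 10.2% of counts in DOX and 4.87% to 5.81% in PBS. Of the 43 members, 35 passed the filter on low counts and were tested among 13725 genes. The other 8 held 0 to 12 counts in a library.

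The members covered a wide range of levels (FPKM, reads relative to gene length and to the library's total). Averaged over the 6 libraries, 12 members reached at least 100 FPKM, 8 lay between 10 and 100, 5 between 1 and 10, and 18 under 1. Cyp3a11, the main hepatic Cyp3a enzyme of the mouse and the counterpart of the human drug-metabolizing CYP3A enzymes, had the highest mean, 1339 FPKM. Cyp2e1, which oxidizes ethanol and paracetamol, followed with 935 FPKM, and the ranges of this pair over the libraries overlapped. Cyp2d26 (277 FPKM), Cyp2d10 (251 FPKM) and Cyp2c29 (249 FPKM) came next and lay within each other's spread. Together the 43 members took 0.89%, 0.895% and 1.24% of all counts in DOX replicates 1, 2 and 3, against 0.857%, 0.601% and 0.98% in PBS replicates 1, 2 and 3. DOX replicate 3 was the highest and PBS replicate 2 the lowest, while the other 4 libraries lay close together.

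**Figure D1:**
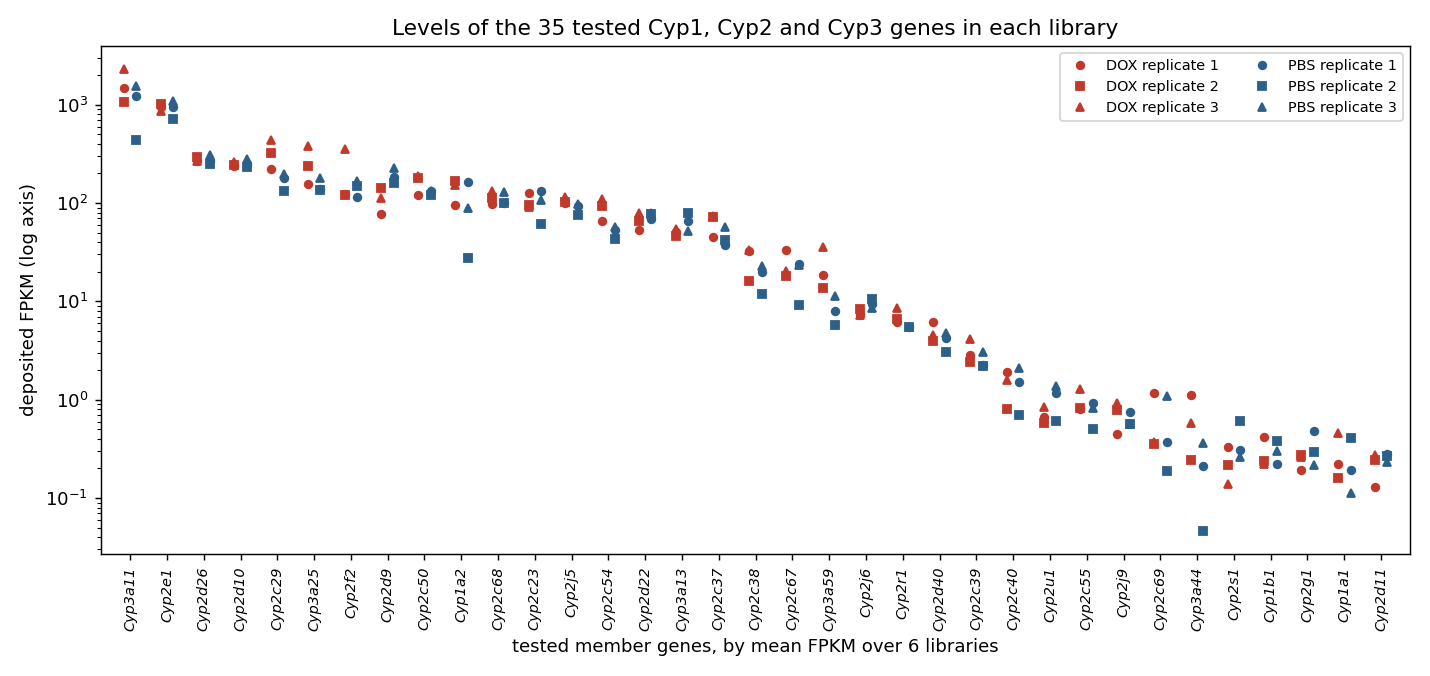
Deposited FPKM (log axis) of the 35 tested members in each library, DOX in red left of PBS in blue, ordered by the mean over 6 libraries; circles, squares and triangles are replicates 1, 2 and 3. The groups overlap for most members, and DOX replicate 3 and PBS replicate 2 often hold the extreme values, as for Cyp3a11 at 2308 FPKM in DOX replicate 3 and 433 FPKM in PBS replicate 2.

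By subfamily, the summed FPKM separated the groups for Cyp2c, Cyp2j and Cyp2r, which is Cyp2r1 alone, and not for Cyp3a. The Cyp3a members summed to 1709.5, 1355 and 2782 FPKM in DOX replicates 1 to 3, against 1427, 654 and 1781 FPKM in PBS replicates 1 to 3. The mean of DOX was 1.51 times that of PBS, but DOX replicate 2 lay below PBS replicates 1 and 3, and the ratio was 0.956 without DOX replicate 3 and PBS replicate 2. The Cyp2c members summed to 753, 915 and 1095 FPKM in DOX replicates 1 to 3, against 684, 524 and 734 FPKM in PBS replicates 1 to 3. Each DOX library lay above each PBS library, with a ratio of means of 1.42. The Cyp2d members summed to 642, 755 and 726 FPKM in DOX replicates 1 to 3, against 776, 723 and 901 FPKM in PBS replicates 1 to 3, a ratio of 0.885, and the groups overlapped. The Cyp2j members summed to 108, 112 and 124 FPKM in DOX replicates 1 to 3, against 103, 86.5 and 107 FPKM in PBS replicates 1 to 3, a ratio of 1.16 without overlap of the groups. Cyp2j5 made up 87.1% to 93.4% of the Cyp2j sum in each library, and the ratio was 0.827 without it. Taken from the group means, Cyp3a made up 39.1% of the members' FPKM in DOX and 32.2% in PBS, and Cyp2d 14.2% in DOX and 19.99% in PBS. Such shares depend on each other and show no spread between libraries. The sums and shares are descriptions without a test. FPKM are relative to the total count, and scaling by library size alone moved the median log2 fold change of all tested genes to -0.149, against -0.015 with TMM.

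**Figure D2:**
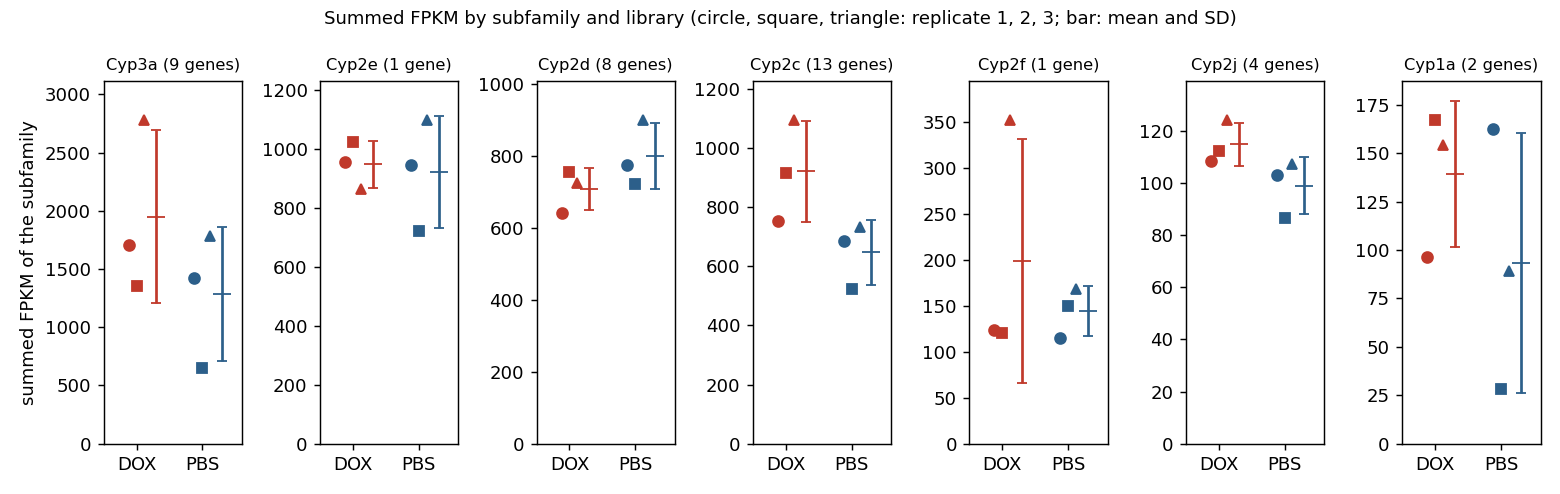
Summed FPKM of the 7 subfamilies with the highest sums (linear axis from 0), DOX left of PBS; points are libraries and bars are the mean with its SD (n = 3). The Cyp2c sums of DOX (753 to 1095 FPKM) lie above those of PBS (524 to 734 FPKM), while the Cyp3a sums overlap.

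None of the 35 tested members changed between DOX and PBS at an adjusted p under 0.05 (edgeR quasi-likelihood with Benjamini-Hochberg adjustment over 13725 genes), where 0.0291% of all tested genes were called, 0.0219% as higher and 0.00729% as lower, 4 genes in all. Adjusted p-values below are from this test unless DESeq2 is named. At an unadjusted p under 0.05 stood 11 members, or 31.4%, against 9.9% of all tested genes. They were 10 members with a positive and 1 with a negative log2 fold change, or 28.6% and 2.86% of the 35, against 5.03% and 4.87% of all tested genes. DESeq2, run as an alternative, called 2 members higher, Cyp2c29 and Cyp2c54, and none lower, where it called 0.863% of all genes higher and 0.324% lower. Without the filter on low counts, edgeR called 3 members higher, Cyp2c29, Cyp2c54 and Cyp3a59, and none lower, where 0.292% of all genes were called, 0.215% as higher and 0.0765% as lower. The log2 fold change was positive for 27 of the 35, or 77.1%, against 47.0% of all tested genes. The median over the 35 was 0.39, against -0.015 over all tested genes. In TMM-scaled CPM the groups did not overlap for 6 members higher in DOX and 1 lower, or 17.1% and 2.86%, against 7.84% and 9.02% of all tested genes. In FPKM they did not overlap for 5 members higher and 2 lower, against 2.56% and 19.6% of all tested genes. The members are close relatives in shared gene clusters and are not independent of each other.

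**Figure D3:**
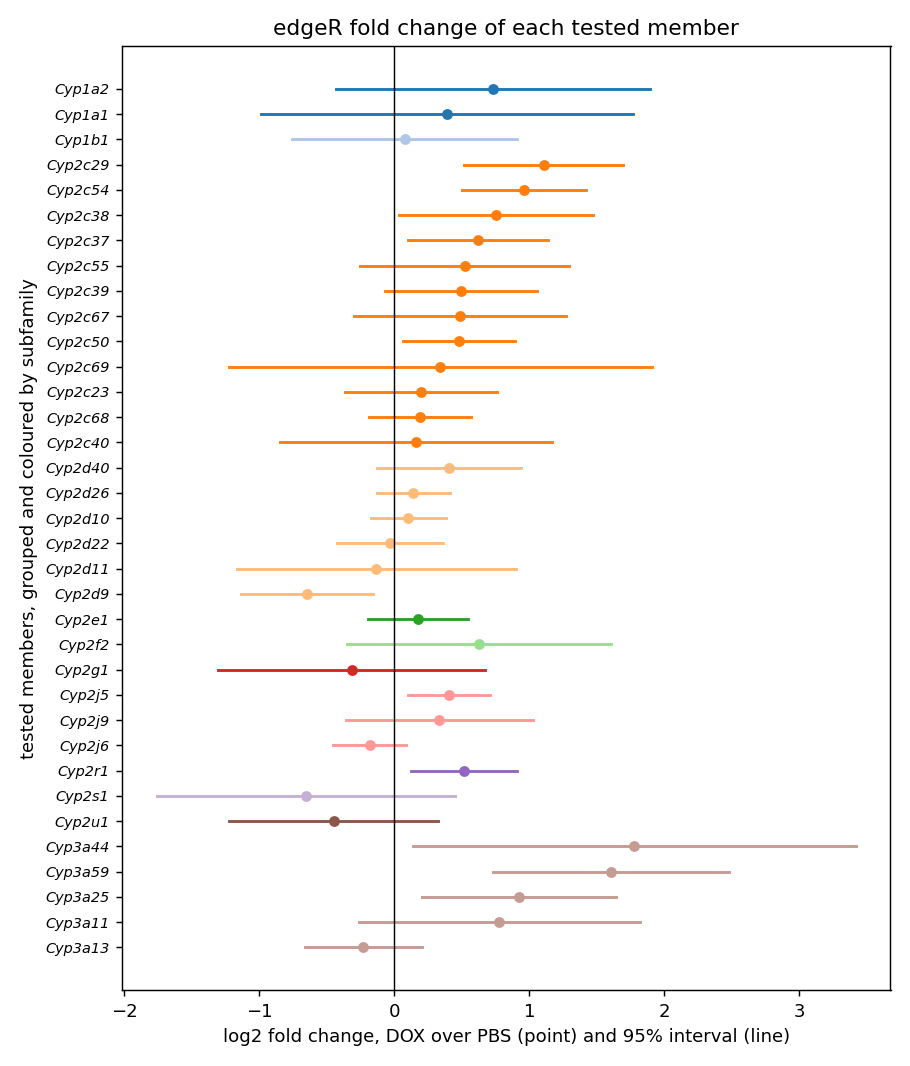
edgeR log2 fold change of DOX over PBS with its 95% interval for the 35 tested members, grouped and coloured by subfamily. The 12 tested Cyp2c members are all to the right of 0, 10 intervals lie wholly above 0 and 1, of Cyp2d9, wholly below.

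Among the Cyp3a genes, 4 of the 5 tested members had a positive log2 fold change and none passed the threshold. Cyp3a11 (chromosome 5, 145854607 to 145879854 in GRCm38) stood at 3170.1, 2163 and 5257 CPM in DOX replicates 1, 2 and 3, against 2335, 883 and 2956 CPM in PBS replicates 1, 2 and 3. The groups overlapped, with the highest value in DOX replicate 3 and the lowest in PBS replicate 2, and the log2 fold change was 0.78 (adjusted p = 0.596, SE 0.45). It was 0.38 without DOX replicate 3, 0.42 without PBS replicate 2 and 0.01 without both. Cyp3a25 (chromosome 5, 145977192 to 146009644), a further adult hepatic Cyp3a gene, stood at 323, 471 and 849.7 CPM in DOX replicates 1, 2 and 3, against 260.2, 268 and 337 CPM in PBS replicates 1, 2 and 3. DOX replicate 1 lay below PBS replicate 3, and the log2 fold change was 0.93 (adjusted p = 0.423, SE 0.31), or 0.46 without DOX replicate 3. Its neighbour Cyp3a59 (chromosome 5, 146079208 to 146114978) stood at 71.9, 50.8 and 149 CPM in DOX replicates 1, 2 and 3, against 28.2, 21.6 and 39.3 CPM in PBS replicates 1, 2 and 3. All 3 DOX libraries lay above all 3 PBS libraries, a 3.04-fold difference with a 95% interval of 1.66 to 5.58. The log2 fold change of 1.61 (adjusted p = 0.267, SE 0.38) did not pass, although it did without the filter on low counts (edgeR adjusted p = 0.0311), and it was 1.05 without DOX replicate 3. The coding sequences of Cyp3a25 and Cyp3a59 share 97.5% of their bases in the GENCODE annotation, so reads of this pair could be split between them by the authors' counting and the separate levels are uncertain.

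Of the remaining Cyp3a genes, Cyp3a13 had a negative log2 fold change and the others had few reads. Cyp3a13, the member farthest from the cluster (chromosome 5, 137892933 to 137925610), averaged 304 ± 41.1 CPM in DOX and 356 ± 87.03 CPM in PBS (SD, n = 3 each), a log2 fold change of -0.23 (adjusted p = 0.716, SE 0.19). The groups overlapped, with PBS replicate 2 highest, the reverse of its place for Cyp3a11. The female-predominant genes Cyp3a16, Cyp3a41a, Cyp3a41b and Cyp3a44 had at most 85 reads in a library. Their coding sequences are 92.8% to 95.2% identical to that of Cyp3a11, which held 29196 to 194745 reads in a library. Reads of Cyp3a11 may therefore be among theirs. Cyp3a44 had 85, 16 and 47 reads in DOX replicates 1 to 3, against 17, 3 and 25 reads in PBS replicates 1 to 3, and its groups overlapped (log2 fold change 1.78, adjusted p = 0.484, SE 0.71). Cyp3a16, Cyp3a41a and Cyp3a41b did not pass the filter and held 0 to 9 reads in a library, and Cyp3a57 held 0 to 1. At such counts a difference was not detectable. Cyp3a41a and Cyp3a41b share 99.9% of their coding bases, and their reads cannot be assigned with confidence.

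The Cyp2c genes held the members that came nearest to the threshold. The log2 fold change was above 0 for all 12 tested members, between 0.16 and 1.11, and its median was 0.49. None passed, and the 13th, Cyp2c65, held 0 to 1 reads in a library. Scaled by library size alone, the 12 stayed above 0, at 0.0031 for Cyp2c40. Without PBS replicate 2, Cyp2c23, Cyp2c40 and Cyp2c69 were at -0.04, -0.15 and -0.04. Without DOX replicate 1, Cyp2c40 and Cyp2c69 were at -0.07 and -0.43. Without DOX replicate 3 and PBS replicate 2, Cyp2c40 and Cyp2c68 were at -0.26 and -0.01. Cyp2c29 (chromosome 19, 39287044 to 39330713), a CAR target that also makes epoxides of arachidonic acid, stood at 414, 573 and 859 CPM in DOX replicates 1, 2 and 3, against 299.9, 233 and 324 CPM in PBS replicates 1, 2 and 3. The lowest DOX value lay above the highest PBS value, and the log2 fold change was 1.11 (adjusted p = 0.259, SE 0.26), a 2.15-fold difference with a 95% interval of 1.43 to 3.24. DESeq2 gave an adjusted p of 0.00151, and over all alternatives the adjusted p ranged from 0.00151 to 0.604. Cyp2c54 (chromosome 19, 40037939 to 40073845) stood at 125, 168 and 222 CPM in DOX replicates 1, 2 and 3, against 90.8, 77.01 and 96.9 CPM in PBS replicates 1, 2 and 3. Its groups did not overlap either, and the log2 fold change was 0.96 (adjusted p = 0.218, SE 0.20), with a DESeq2 adjusted p of 0.000987 and a range over all alternatives of 0.000987 to 0.545. Leaving out 1 library at a time gave log2 fold changes of 0.79 to 1.33 for Cyp2c29 and 0.73 to 1.15 for Cyp2c54.

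Along chromosome 19 these genes are not neighbours, since 7 other members lie between Cyp2c29 and Cyp2c54. Cyp2c54 stands between Cyp2c37 and Cyp2c50, arachidonic acid monooxygenases like Cyp2c29. Cyp2c50 stood at 369, 520.4 and 617 CPM in DOX replicates 1, 2 and 3, against 365, 351 and 363 CPM in PBS replicates 1, 2 and 3. Its PBS values lay within 14 CPM of each other and DOX replicate 1 was only just above them, with a log2 fold change of 0.48 (adjusted p = 0.462, SE 0.18). In FPKM its groups overlapped, with DOX replicate 1 at 121 FPKM and PBS replicate 1 at 133 FPKM. Cyp2c37 averaged 122 ± 33.7 CPM in DOX and 79.5 ± 17.7 CPM in PBS (SD, n = 3 each), a log2 fold change of 0.62 (adjusted p = 0.457, SE 0.23) with overlapping groups. The coding sequences of Cyp2c37 and Cyp2c54 are 96.1% and 95.2% identical to that of Cyp2c50, so reads of these 3 genes may have been split. Cyp2c38 averaged 50.9 ± 19.6 CPM in DOX and 30.3 ± 8.64 CPM in PBS (SD, n = 3 each) with overlap (log2 fold change 0.75, adjusted p = 0.492, SE 0.31), and its annotated span lies inside that of Cyp2c39, so reads of this pair may be mixed. Cyp2c68 and Cyp2c23, at log2 fold changes of 0.19 and 0.20, lay at the low end. The female-predominant Cyp2c40 and Cyp2c69 averaged 2.73 and 1.16 CPM in DOX and 2.44 and 0.916 CPM in PBS, with overlap of the groups for both. In coding bases Cyp2c40 is 92.6% identical to Cyp2c68 and Cyp2c69 is 97.7% identical to Cyp2c67. Cyp2c68 averaged 219 CPM in DOX and 192 CPM in PBS, and Cyp2c67 43.3 and 30.9 CPM, so their reads may be among those of Cyp2c40 and Cyp2c69.

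The stretches before the transcription starts of 7 Cyp3a, Cyp2c and Cyp2d members are shown to set close relatives beside each other, and Cyp2c54 is not among them. The sequences are from RefSeq (GRCm38.p6), run from base 190 to base 41 before the start given in the RefSeq promoter table, and are written in the direction of the gene. For Cyp3a25, Cyp3a59 and Cyp2c29 that start lies inside the gene span given above. The stretches of Cyp3a59 and Cyp2c29 reach into that span. Capitals mark each match, on either strand, to CAAAGNNCA, the core of sites bound by HNF4 alpha (Hnf4a), or to AGGTCA, the half-site of nuclear receptors such as CAR and PXR.
Cyp3a11, chr5:145879895-145880044, minus strand: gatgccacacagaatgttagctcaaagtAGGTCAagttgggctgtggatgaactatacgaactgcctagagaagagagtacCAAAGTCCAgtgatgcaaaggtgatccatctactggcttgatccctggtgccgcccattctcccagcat
Cyp3a25, chr5:146009659-146009808, minus strand: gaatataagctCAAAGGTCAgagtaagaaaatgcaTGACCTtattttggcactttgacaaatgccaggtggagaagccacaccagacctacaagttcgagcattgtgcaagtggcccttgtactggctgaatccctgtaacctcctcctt
Cyp3a59, chr5:146079068-146079217, plus strand: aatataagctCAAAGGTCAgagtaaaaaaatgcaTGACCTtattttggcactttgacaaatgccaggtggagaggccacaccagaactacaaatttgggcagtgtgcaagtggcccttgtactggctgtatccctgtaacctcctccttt
Cyp2c29, chr19:39286895-39287044, plus strand: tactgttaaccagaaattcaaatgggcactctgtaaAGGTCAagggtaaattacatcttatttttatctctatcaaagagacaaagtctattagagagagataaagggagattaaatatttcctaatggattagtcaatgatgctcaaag
Cyp2c37, chr19:39992234-39992383, plus strand: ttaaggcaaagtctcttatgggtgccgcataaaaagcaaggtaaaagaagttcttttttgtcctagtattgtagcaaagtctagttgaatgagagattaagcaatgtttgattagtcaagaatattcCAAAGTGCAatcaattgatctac
Cyp2c50, chr19:40089489-40089638, plus strand: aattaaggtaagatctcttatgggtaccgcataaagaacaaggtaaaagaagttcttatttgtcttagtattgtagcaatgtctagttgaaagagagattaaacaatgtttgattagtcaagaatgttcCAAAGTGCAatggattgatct
Cyp2d9, chr15:82452187-82452336, plus strand: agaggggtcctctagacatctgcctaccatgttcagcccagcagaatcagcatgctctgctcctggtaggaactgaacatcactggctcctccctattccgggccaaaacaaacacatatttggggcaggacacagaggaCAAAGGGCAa
The stretches of Cyp3a25 and Cyp3a59 are 93.4% identical and carry AGGTCA once on each strand, the first of them inside a CAAAGNNCA match. Cyp3a11 carries each motif once, at separate places, and Cyp2c29 carries AGGTCA alone. Cyp2c37 and Cyp2c50, whose stretches are 88.2% identical, carry CAAAGNNCA alone, as does Cyp2d9.

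Promoters were found for 36 of the 43 members. Within 250 bases before a start, CAAAGNNCA was present on either strand in 20 of the 36, or 55.6%, against 6.29% of 27025 genes in the table. Its exact form CAAAGTCCA was present in 9, or 25.0%, against 0.451%, and AGGTCA in 9, or 25.0%, against 15.8%. The core of AHR sites, GCGTG, was present in 4, or 11.1%, against 30.9%, namely Cyp1a1, Cyp1b1, Cyp2c68 and Cyp2j9. The members' promoters descend from common ancestors and are not independent, and a match of letters does not show binding.

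Among the Cyp2d genes, Cyp2d9 was the 1 member of the 35 whose DOX values all lay below its PBS values in TMM-scaled CPM. Cyp2d9 (chromosome 15, 82452377 to 82456827) encodes a steroid hydroxylase expressed mainly in male mouse liver. It stood at 133, 237 and 206 CPM in DOX replicates 1, 2 and 3, against 282, 265 and 353 CPM in PBS replicates 1, 2 and 3. DOX replicate 1 was lowest and PBS replicate 3 highest, and the log2 fold change was -0.65 (adjusted p = 0.418, SE 0.21), with a 95% interval of -1.14 to -0.16. It was negative in each setting tried, from -0.81 to -0.43, and passed in none. The abundant Cyp2d26 and Cyp2d10 had 95% intervals that spanned 0, -0.13 to 0.41 and -0.17 to 0.38 on the log2 scale. Scaled by library size alone, Cyp2d10 was at -0.04, against 0.10 with TMM. Cyp2d22, proposed as a mouse counterpart of the human CYP2D drug hydroxylase, averaged 193 ± 46.2 CPM in DOX and 198 ± 18.00 CPM in PBS (SD, n = 3 each) with a log2 fold change of -0.03 (adjusted p = 0.964, SE 0.17). Cyp2d40 averaged 5.63 ± 1.36 CPM in DOX and 4.25 ± 0.811 CPM in PBS (SD, n = 3 each) with overlap of the groups. Cyp2d11, Cyp2d12 and Cyp2d34 held 1 to 18 reads in a library. Cyp2d9 is 93.3% identical in coding bases to Cyp2d11, which was nearly absent. It is 92.5% identical to Cyp2d10, which averaged 443 CPM in DOX and 412 CPM in PBS, so reads of Cyp2d9 and Cyp2d10 may be mixed.

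The Cyp1 genes, which AHR controls, did not separate the groups. Cyp1a2 (chromosome 9, 57676937 to 57683655), the constitutive hepatic member that oxidizes caffeine, stood at 189, 315 and 323 CPM in DOX replicates 1, 2 and 3, against 287, 52.05 and 158 CPM in PBS replicates 1, 2 and 3. PBS replicate 2 was the lowest library and PBS replicate 1 lay above DOX replicate 1, and the log2 fold change was 0.73 (adjusted p = 0.661, SE 0.51), or 0.31 without PBS replicate 2. Cyp1a1, which is nearly silent until AHR is activated, had 24, 15 and 52 reads in DOX replicates 1 to 3, against 22, 37 and 11 reads in PBS replicates 1 to 3, with a log2 fold change of 0.39 (adjusted p = 0.855, SE 0.60) that was -0.22 without DOX replicate 3. Cyp1b1, an estrogen hydroxylase found mostly outside hepatocytes, averaged 1.58 ± 0.595 CPM in DOX and 1.51 ± 0.442 CPM in PBS (SD, n = 3 each), and its sign turned when scaled by library size alone (log2 fold change 0.08 with TMM and -0.05 without). Cyp1a1 and Cyp1a2 are neighbours on chromosome 9, and Cyp1a2 made up 98.6% to 99.9% of their summed FPKM in each library.

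Of the members with no close relative among the 43, Cyp2e1 (chromosome 7, 140763819 to 140774990) stood at 1756, 1794 and 1691 CPM in DOX replicates 1, 2 and 3, against 1560.4, 1265 and 1813 CPM in PBS replicates 1, 2 and 3. The DOX values lay within the range of the PBS values, and the log2 fold change was 0.18 (adjusted p = 0.743, SE 0.16), with a 95% interval of -0.19 to 0.55. Cyp2f2, an enzyme of naphthalene activation known from periportal hepatocytes and lung, stood at 235, 218 and 711 CPM in DOX replicates 1, 2 and 3, against 196, 270.2 and 287 CPM in PBS replicates 1, 2 and 3. A single library, DOX replicate 3, stood above all others, and the log2 fold change of 0.63 (adjusted p = 0.652, SE 0.43) turned to -0.15 without it. Cyp2r1, the microsomal hydroxylase of vitamin D, stood at 11.2, 11.4 and 16.7 CPM in DOX replicates 1, 2 and 3, against 8.93, 9.56 and 9.07 CPM in PBS replicates 1, 2 and 3. The groups did not overlap, while the PBS libraries were nearly equal, and the log2 fold change was 0.52 (adjusted p = 0.418, SE 0.17).

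Cyp2j5, an arachidonic acid epoxygenase of liver and kidney, stood at 246, 241 and 302 CPM in DOX replicates 1, 2 and 3, against 204, 176 and 216 CPM in PBS replicates 1, 2 and 3. All DOX libraries lay above all PBS libraries, with a log2 fold change of 0.40 (adjusted p = 0.414, SE 0.13). Its relative Cyp2j6 averaged 76.2 ± 3.85 CPM in DOX and 86.5 ± 12.4 CPM in PBS (SD, n = 3 each), with a log2 fold change of -0.18 (adjusted p = 0.628, SE 0.12), and the separation of the groups depended on the scale, since they did not overlap in FPKM and did in TMM-scaled CPM. Cyp2j9 averaged 3.26 ± 1.2 CPM in DOX and 2.58 ± 0.369 CPM in PBS (SD, n = 3 each) with overlap, and Cyp2j8 held 1 to 3 reads in a library. Cyp2u1, a fatty acid hydroxylase, Cyp2s1, known from epithelia, and Cyp2g1, known from the olfactory mucosa, averaged under 3 CPM in both groups. Their log2 fold changes of -0.45, -0.65 and -0.31 did not pass (edgeR adjusted p = 0.691, 0.684 and 0.835).

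The members' extreme values were often in 2 libraries. In TMM-scaled CPM, DOX replicate 3 held the highest value of 21 of the 35 tested members, or 60%, against 21.2% of all tested genes. PBS replicate 2 held the lowest value of 18 of the 35, or 51.4%, against 19.5% of all tested genes. Without DOX replicate 3 the median log2 fold change of the members was 0.21, without PBS replicate 2 it was 0.28, and without both, an alternative chosen after the data were seen, it was 0.08, with 24 of 35 positive. In that setting Cyp3a59, Cyp2c29 and Cyp2c54 kept log2 fold changes of 0.86, 0.66 and 0.64 and Cyp2d9 one of -0.78, while Cyp3a11 was at 0.01. Over the 3 libraries of a group, the median coefficient of variation of the tested members was 28.4% in DOX and 19.4% in PBS. It was not computed over all tested genes, so this difference cannot be read as particular to the members.

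**Figure D4:**
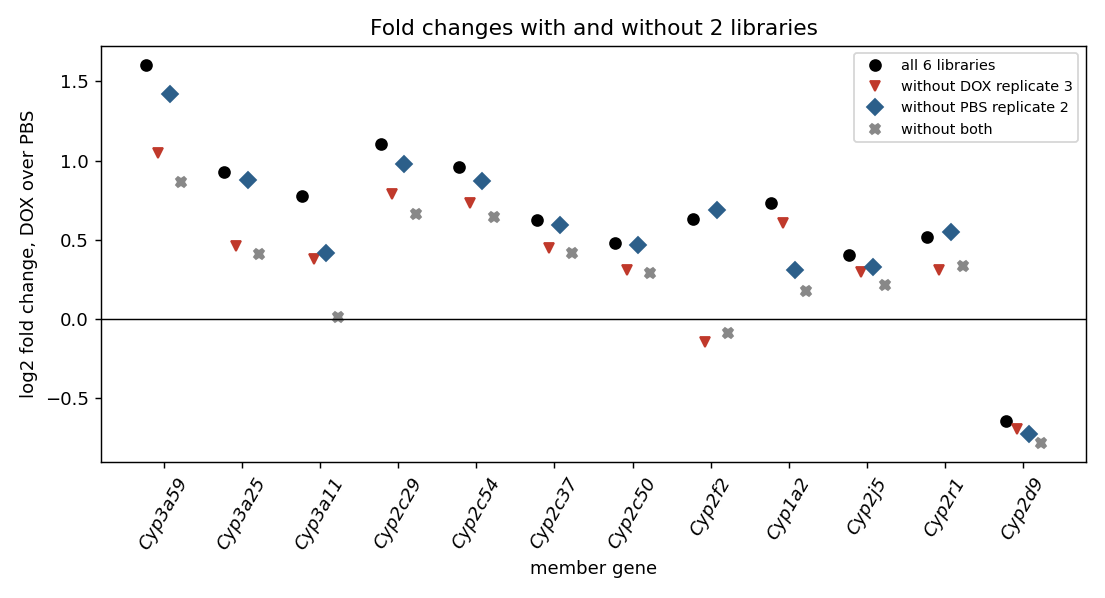
log2 fold change of DOX over PBS for 12 members with all 6 libraries (circles), without DOX replicate 3 (red triangles), without PBS replicate 2 (blue diamonds) and without both (grey crosses). Cyp3a11 lies at 0.01 without both, against 0.78 with all libraries, and Cyp2f2 lies below 0 without DOX replicate 3, while Cyp2d9 stays between -0.65 and -0.78.

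Markers of some other cell types had their extremes in the same libraries. In FPKM, DOX replicate 3 held the lowest value of 44.3% of all tested genes, and in TMM-scaled CPM of 25.6%. PBS replicate 2 held the highest FPKM of 19.1%, less often than PBS replicates 1 and 3 (24.7% and 26.5%). The 12 cholangiocyte markers summed to 162, 156 and 80.9 FPKM in DOX replicates 1 to 3, against 206, 260.2 and 186 FPKM in PBS replicates 1 to 3, lowest in DOX replicate 3 and highest in PBS replicate 2. Of these markers, 11 had a negative log2 fold change and none passed with edgeR, with a median of -0.62, or -0.26 when PBS replicate 2 was left out and -0.38 when DOX replicate 3 was. DESeq2 called 1 of them lower, Tspan8 (adjusted p = 0.00991), at an edgeR log2 fold change of -0.81 (adjusted p = 0.216, SE 0.17). The 12 liver endothelial markers summed to 45.6 to 83.5 FPKM in DOX and 19.8 to 59.4 FPKM in PBS, lowest in PBS replicate 2, with 11 positive and none called by either tool (median 0.80, or 0.38 without PBS replicate 2). The stellate cell list summed to 62.5 to 143 FPKM in DOX and 72.7 to 145 FPKM in PBS, lowest in DOX replicate 3. The Kupffer cell and macrophage list summed to 605 to 863 FPKM in DOX and 811 to 862 FPKM in PBS, also lowest in DOX replicate 3. The neutrophil list summed to 15.7 to 25.5 FPKM in DOX and 19.2 to 46.3 FPKM in PBS. None of the tested stellate, macrophage or neutrophil markers was called by edgeR or DESeq2. The medians of these lists were 0.26, 0.00 and -0.52, and no marker of any list was at 0 in all libraries. The log2 fold change was positive for 11 of 12 stellate, 6 of 12 macrophage and 0 of 7 tested neutrophil markers. The stellate median was 0.55 without DOX replicate 3 and 0.09 without PBS replicate 2. The 12 hepatocyte markers summed to 72892 to 103139 FPKM in DOX and 73132 to 76313 FPKM in PBS, with 8 positive and none called by edgeR (median 0.08, or -0.05 when scaled by library size alone). DESeq2 called 1 of them higher, Alb (adjusted p = 0.0181), at an edgeR log2 fold change of 0.84 (adjusted p = 0.457, SE 0.31). The part of these cell types in the members' values was not tested, and in whole liver fewer cells of a type cannot be told apart from less RNA per cell.

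Among the partners of the P450 enzymes, neither edgeR nor DESeq2 called a gene. The log2 fold change was above 0 for all 6 genes of electron transfer, and its median was 0.31 (0.17 when scaled by library size alone). Cyb5b, the outer mitochondrial form of cytochrome b5, averaged 294 ± 45.9 CPM in DOX and 212 ± 33.03 CPM in PBS (SD, n = 3 each), with a log2 fold change of 0.47 (adjusted p = 0.418, SE 0.16), without overlap of the groups. Cyb5r3, a cytochrome b5 reductase, stood at 423, 432 and 476 CPM in DOX replicates 1, 2 and 3, against 409, 317 and 330.5 CPM in PBS replicates 1, 2 and 3. Its groups did not overlap either, at a log2 fold change of 0.33 (adjusted p = 0.484, SE 0.13). Por itself averaged 885 ± 109.7 CPM in DOX and 865 ± 282 CPM in PBS (SD, n = 3 each), with overlap of the groups (log2 fold change 0.03, adjusted p = 0.97502, SE 0.23). Of 12 genes of haem synthesis and breakdown, 10 were positive with a median of 0.21. Cpox, the coproporphyrinogen oxidase, had a log2 fold change of 0.39 (adjusted p = 0.399, SE 0.12), Urod, the uroporphyrinogen decarboxylase, one of 0.24 (adjusted p = 0.462, SE 0.09), and Alas1, the rate-limiting enzyme, one of -0.09 (adjusted p = 0.91, SE 0.21).

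Among 16 tested genes of the nuclear receptors, AHR and hepatocyte transcription factors, 6 were positive, none was called by edgeR, and the median was -0.02. Nr1i2, which encodes PXR, stood at 77.01, 70.1 and 85.6 CPM in DOX replicates 1, 2 and 3, against 61.8, 61.2 and 62.7 CPM in PBS replicates 1, 2 and 3. The groups did not overlap, and the log2 fold change was 0.32 (adjusted p = 0.386, SE 0.10). Nr1i3, which encodes CAR, averaged 92.6 ± 21.9 CPM in DOX and 85.9 ± 13.6 CPM in PBS (SD, n = 3 each), with a log2 fold change of 0.11 (adjusted p = 0.877, SE 0.19), and Ahr 54.2 ± 8.32 CPM in DOX and 55.5 ± 15.2 CPM in PBS (SD, n = 3 each), with a log2 fold change of -0.04 (adjusted p = 0.967, SE 0.20). Onecut1, a liver transcription factor, stood at 5.82, 6.38 and 3.67 CPM in DOX replicates 1, 2 and 3, against 12.7, 11.04 and 10.5 CPM in PBS replicates 1, 2 and 3. Its DOX values were all below its PBS values, and the log2 fold change of -1.11 (adjusted p = 0.183, SE 0.21) passed with DESeq2 (adjusted p = 0.000375). Of 6 tested AHR targets outside the P450 families, all had a positive log2 fold change and none was called by either tool (median 0.35, or 0.07 without DOX replicate 3). Ugt1a6a, a glucuronosyltransferase, had a log2 fold change of 0.53 (adjusted p = 0.321, SE 0.14) without overlap, and Tiparp, a feedback regulator of AHR, one of 0.02 (adjusted p = 0.977, SE 0.14).

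Other hepatic P450 families gave 17 positive of 24 tested genes, none called by edgeR, with a median of 0.27. Cyp26b1, a retinoic acid hydroxylase, stood at 3.63, 4.46 and 7.61 CPM in DOX replicates 1, 2 and 3, against 1.13, 1.03 and 2.33 CPM in PBS replicates 1, 2 and 3. The groups did not overlap, and its log2 fold change of 1.80 (adjusted p = 0.251, SE 0.40) passed with DESeq2 (adjusted p = 0.000843). Cyp26a1, of the same function, averaged 42.5 ± 21.6 CPM in DOX and 19.1 ± 6.48 CPM in PBS (SD, n = 3 each) with overlap of the groups (log2 fold change 1.16, adjusted p = 0.399, SE 0.36). Cyp51, of cholesterol synthesis, and Cyp27a1, of bile acid synthesis, had log2 fold changes of 0.48 (adjusted p = 0.423, SE 0.16) and 0.38 (adjusted p = 0.45, SE 0.14), both without overlap of the groups.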

How the data were processed

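For the 6 liver libraries the authors deposited raw read counts per gene, as whole numbers, and FPKM. Library preparation used the SMARTER mRNA-Seq kit, per the labels' protocols, and the builds named are GRCm38 and mm10, per the submitters' processing notes. Aligner, counter and strand setting were not given in the sources used here. For all 18913 genes counted in 2 or more libraries, the deposited FPKM matched the count over a fixed length and the library total within a relative tolerance of 1e-05.

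DOX was compared with PBS by edgeR 4.0.16 (R 4.3.3; filterByExpr, TMM, quasi-likelihood test) with Benjamini-Hochberg adjustment over 13725 genes and a threshold of 0.05, a procedure tested on simulated data. SEs derive from the F statistic. Libraries of one group differed beyond sampling noise and counted as 1 sample each. A permutation test of 3 against 3 libraries cannot go below 0.1. Alternatives were RLE scaling, library size only, DESeq2 1.42.0, limma-voom (limma 3.58.1), no filter or at least 10 counts in 3 libraries, a replicate block, omission of libraries, and limma on log2 of FPKM plus 1 or 0.1. Coding sequences are from GENCODE M21, promoters and coordinates from RefSeq (GRCm38.p6).

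Named members are the most abundant of each subfamily, the 10 of smallest p per direction and a fixed set, with list genes of smallest p. Other members, and Por, Alas1, Ahr, Nr1i3 and Tiparp, were named after their values were seen. The members and lists were chosen with earlier results of these data known.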

Additional observations from a re-analysis of the deposited data

How the results depend on the processing

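The number of genes called was 4, and became 176 with DESeq2, 61 without the filter on low counts and 2 with limma-voom, and leaving out 1 library gave 3 to 4. The number of members called was 0, and became 2 with DESeq2 (Cyp2c29 and Cyp2c54) and 3 without the filter (with Cyp3a59), and leaving out 1 library gave 0. With the replicate block, 21 genes and 1 member, Cyp3a59 (adjusted p = 0.0265), were called. The labels give the replicate numbers no meaning, and the deviations of libraries of the same number correlated at 0.192, 0.13 and 0.00975, so the numbers were not taken as pairs; DOX replicate 3 correlated best with PBS replicate 2. The median log2 fold change of the tested members was 0.39, 0.21 to 0.48 without 1 library, and 0.0805 without DOX replicate 3 and PBS replicate 2. It was 0.11 by limma on log2(FPKM + 1), a scale that shrinks low genes and lacks TMM. Also without TMM, it was 0.24 by limma on log2(FPKM + 0.1) and 0.25 by edgeR with library size alone. The ratio of summed FPKM of Cyp2j was 1.16, and 0.827 without Cyp2j5, and that of Cyp2s was 0.584, 0.452 to 0.801 without 1 library, and 0.958 without those 2 libraries. The ratio of Cyp3a was 1.51, and 0.956 without those 2 libraries. That of Cyp2f was 1.38, and 0.847 without DOX replicate 3, and that of Cyp1a was 1.49, and 2.37 without PBS replicate 1. In TMM-scaled CPM the ratio of Cyp2d was 0.981. Of the 27 tested members named by the rule above, 9 changed sign in at least 1 of 16 settings without being called in it. Of the same 27, 3 passed in at least 1. Cyp2c23, Cyp2c68 and Cyp2d10, outside the 27, also changed sign in at least 1 setting. Except where a value shows it, the cause was not tested. For the 8 members of at most 12 counts in a library, depth limits what could be detected.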

Other observations

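Genes of the liver zones were described beside the members, since many P450 enzymes are zoned. Of 10 pericentral genes outside the P450 families, 2 had a positive log2 fold change, none was called by edgeR or DESeq2, and the median was -0.22. Glul, the glutamine synthetase of the innermost pericentral cells, stood at 372, 284 and 290.5 CPM in DOX replicates 1, 2 and 3, against 246, 157 and 244 CPM in PBS replicates 1, 2 and 3. Its DOX values all lay above its PBS values, with a log2 fold change of 0.55 (adjusted p = 0.435, SE 0.19) by edgeR. Lgr5, a Wnt-dependent receptor of the same zone, averaged 0.584 ± 0.0968 CPM in DOX and 1.16 ± 0.51 CPM in PBS (SD, n = 3 each), with overlap of the groups (log2 fold change -0.99, adjusted p = 0.496, SE 0.42). Of 10 periportal genes, 2 were positive and none was called by edgeR (median -0.21, or -0.04 without PBS replicate 2). Cdh1, the E-cadherin gene, which cholangiocytes also express, averaged 57.8 ± 10.8 CPM in DOX and 93.9 ± 17.8 CPM in PBS (SD, n = 3 each) without overlap, and its log2 fold change of -0.70 (adjusted p = 0.308, SE 0.17) passed with DESeq2 (adjusted p = 0.0317). DESeq2 also called Alb of this list, in the other direction (log2 fold change 0.86, adjusted p = 0.0181).

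Of the 6 members known as female-predominant in mouse liver, 3 passed the filter on low counts, all with a positive log2 fold change and none called (median 0.34, or -0.04 without PBS replicate 2). Their summed FPKM was 1.6 to 4.35 FPKM in DOX and 1.07 to 3.76 FPKM in PBS. Reads of more abundant close relatives may be among these. The male-predominant Cyp2d9 alone stood at 77.2 to 144 FPKM in DOX and 162 to 229 FPKM in PBS.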
